A study of Mus musculus with 4 samples.

Results

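The genes described here encode the subunits of the mitochondrial respiratory chain and of the ATP synthase, together with the assembly factors of complex I that share their names. A gene was taken when its symbol in the array's annotation began with Nduf, Uqcr or Atp5, was one of Sdha to Sdhd, or was Cox followed by a number from 4 to 8. This rule used names only and no measured value, although the members were chosen with earlier results of these data known. It found 90 of the 18193 genes on the array, read by 179 of 45037 probe sets (a probe set is a group of probes against 1 stretch of a transcript). Each gene was represented by its brightest probe set, the one with the highest mean over the 4 arrays. By name, 44 genes belonged to complex I, 4 to complex II, 8 to complex III, 17 to complex IV and 17 to complex V. Members whose only probe sets name several genes, and subunits whose symbols fall outside the rule, are given apart.

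The samples were CD4+CD25+ T-cells, the fraction in which regulatory T-cells (Tregs) are found, from the lymph nodes of C57BL/6 mice aged 6 to 12 weeks. All mice had received CD28 superagonist D665 (CD28SA), an antibody that activates T-cells through CD28, by intraperitoneal injection 3 days earlier. All cells were then restimulated overnight in culture, with antibodies to CD3 at 2 µg/ml and to CD28 at 5 µg/ml and with recombinant IL-2 of human sequence at 200 U/ml, stained for IL-10, and sorted by flow cytometry into an IL-10+ group (2 arrays) and an IL-10- group (2 arrays). Both groups thus share the injection, the restimulation and the IL-2, and there is no unstimulated sample. The comparison is of cells sorted as IL-10+ with cells treated alike and sorted as IL-10-. The labels do not say whether the replicates came from separate mice or separate sorts, so every p-value rests on the scatter of these 4 arrays alone, and that scatter may be technical.

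As background, complex I (NADH dehydrogenase) and complex II (succinate dehydrogenase) pass electrons to ubiquinone, complex III hands them to cytochrome c, and complex IV (cytochrome c oxidase) gives them to oxygen. Complexes I, III and IV pump protons across the inner mitochondrial membrane, and complex V, the ATP synthase, uses their return to make ATP. Most subunits are encoded in the nucleus and are built into the complexes with a small set of subunits encoded by the mitochondrial genome, while complex II is wholly nuclear. Activated T-cells draw on both glycolysis and respiration, and Tregs are known to rely on mitochondrial respiration.

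The deposited values are on a log scale, read here as log2, because as natural logarithms they would exceed the range of a 16-bit scanner. Legends of the paper give its fold changes as natural logarithms, so the log base is not settled. A difference is always the mean of the IL-10+ arrays minus the mean of the IL-10- arrays, and a probe set was called lower or higher when limma's moderated two-sided test gave an adjusted p under 0.05 over all 45037 probe sets. The label check held for Il10 itself, which read 12.02 and 12.00 in IL-10+ samples against 10.41 and 10.37 in IL-10- samples (1.62, adjusted p = 7.78e-06). Il10 thus also read above 10 in the IL-10- samples, so the groups differ in its level and not in its presence. Of 9 T-cell and Treg markers Cd4, Cd3g and Ctla4 rose, and Foxp3 (-0.72) and Ikzf2 (-0.55) fell while still reading above 10 on every array. Markers of B cells and plasma cells were far higher in IL-10- samples: 13 of 15 fell in the IL-10+ group and 0 rose, led by Igha (-5.45), and their summed level ranged from 13.57 to 13.59 in IL-10+ samples and from 14.63 to 14.73 in IL-10- samples on the log2 scale. Pax5 (-0.03) and Xbp1 (-0.03) were the markers of this list not called. Xbp1 and Ighm, both at a mean of 12.33, were its brightest in IL-10+ samples, so the summed level there rests mostly on them. Among the markers that fell, Jchain read 7.66 and 7.73 in IL-10+ samples against 10.43 and 10.46 in IL-10- samples, Cd79b 7.03 and 7.17 against 8.20 and 8.11, Ms4a1 5.82 and 5.67 against 6.97 and 6.95, and Cd79a 6.04 and 6.09 against 6.71 and 6.57. Of 5 NK cell markers 3 fell and 1 rose, of 2 cytotoxic T-cell markers 1 fell, and of 7 myeloid markers 2 rose. For the control transcripts dap, lys, phe and thr, the 8 probe sets at the 5' end read higher in IL-10+ samples by a median of 1.16 (range 0.62 to 2.16), against 0.07 (-0.23 to 0.21) for the 8 at the 3' end. Among the array's control probe sets for cellular transcripts, actin differed by 1.12 at the 5' end and 0.40 at the 3' end, and Gapdh by 0.88 and 0.02. These marker and control values move with the 2 groups in the same way for every result below, and their part in the results was not tested.

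Most members read lower in IL-10+ cells. Of the 90 genes, 61 fell (67.8%), 2 rose and 27 were not called, and the median difference was -0.32, against -0.01 over all genes. Over all 18193 genes 22.9% fell and 8.37% rose. The members' medians were 11.12 and 11.14 on the IL-10+ arrays and 11.44 and 11.51 on the IL-10- arrays. In the 4 pairings of an IL-10+ with an IL-10- array, 79 to 82 of the 90 members were lower in the IL-10+ array. The medians of the pairings ran from -0.39 to -0.27. The pairings reuse the same 4 arrays and are not independent, and the same count over all genes was not made. In bulk samples such as these, fewer cells of a type and less RNA per cell cannot be told apart.

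The size of the shift was small for most genes and depended on the array scaling. Differences ran from -1.00 for Ndufs7 to 0.57 for Ndufb1, and on the log2 reading 1 member, Ndufs7, reached a 2-fold difference. Read as natural logarithms, Ndufa5 would pass it as well, at 2.21-fold. After cyclic loess, a scaling that removes trends with brightness, 35 members fell, 3 rose and the median was -0.12. Without IL-10+ replicate 1 the number that fell was 40. Under every alternative scaling, prior, probe set choice and left-out array in which they had a value, 31 members were called lower throughout and 1, Ndufb1, was called higher throughout. How many of all genes did so was not counted, so these numbers have no share to be set beside.

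**Figure D1:**
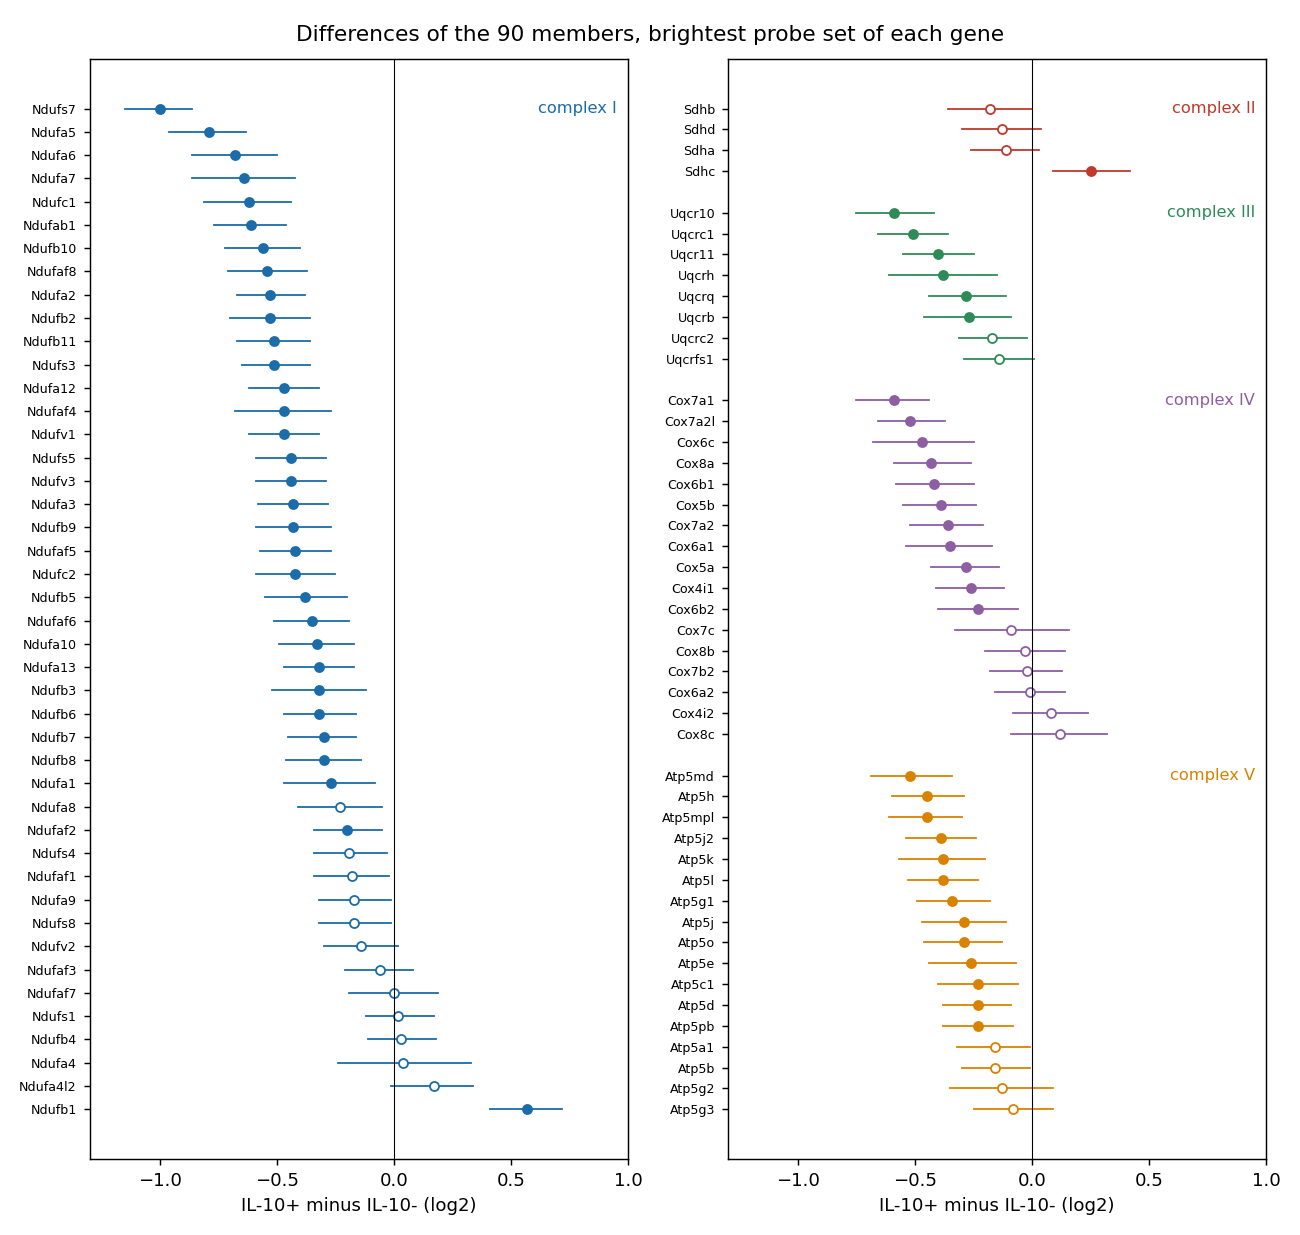
Difference between groups (IL-10+ minus IL-10-, log2, horizontal axis) of the brightest probe set of each of the 90 genes, listed by complex and ordered by size. Points are differences of means of 2 against 2 arrays, lines are limma's 95% confidence intervals, and filled points are genes called at an adjusted p under 0.05; most filled points lie between -0.6 and -0.2, Ndufs7 stands at -1.00, and Ndufb1 and Sdhc are the filled points to the right of 0.

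Respiratory chain genes are bright on these arrays, and bright genes in general read lower in IL-10+ samples, so the members were also set beside genes of like brightness. Among the 1834 genes with a mean of 10 or more, 45.6% fell, 15.1% rose and the median difference was -0.19. Of the 70 members in that range 55 fell (78.6%) and 0 rose, with a median of -0.37. After quantile normalization 39 of these 70 were lower, beside 32.7% of the bright genes, and after cyclic loess 30 were, beside 25.7%. The members' median was the lower one in each brightness step from 10 upward. Between 10 and 11 the median was -0.44 for 17 members and -0.21 for 982 genes. Between 11 and 12 it was -0.35 for 26 members and -0.19 for 549 genes, and from 12 upward it was -0.35 for 27 members and -0.14 for 303 genes. Between 9 and 10 the 4 members had a median of 0.14 against -0.19 for 1696 genes, since Ndufb1 and Sdhc, the 2 that rose, lie there. Of the 13 members with a mean under 8, most of them isoforms of other tissues, 4 fell and the median was -0.02.

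**Figure D2:**
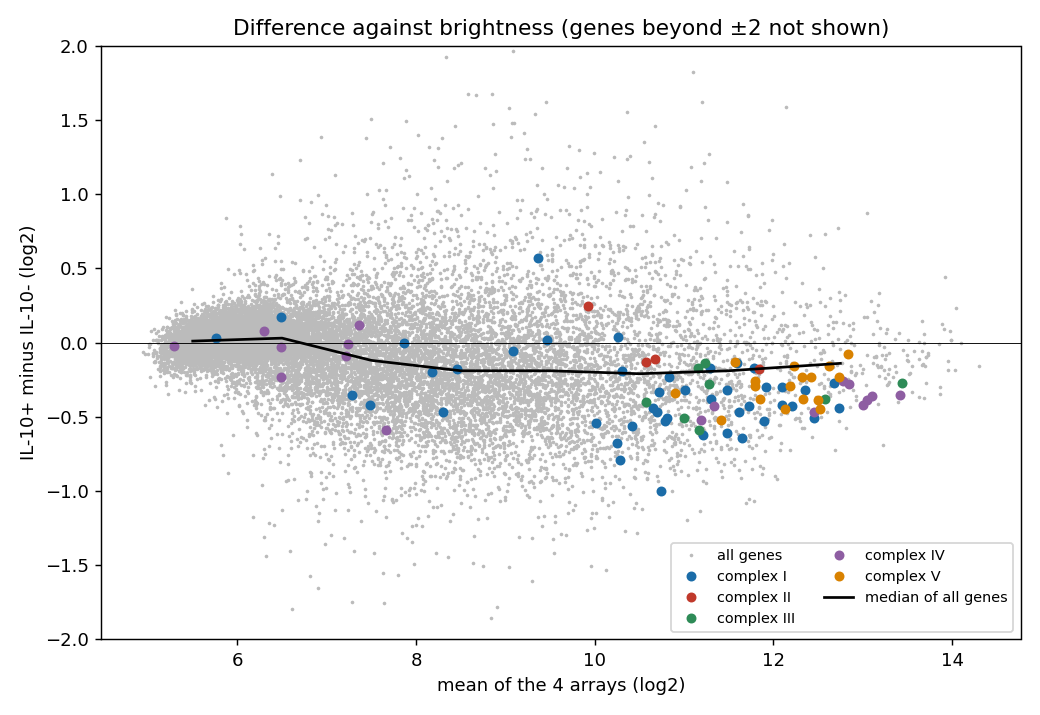
Difference between groups (IL-10+ minus IL-10-, log2, vertical axis) against the mean over the 4 arrays (log2, horizontal axis) for all genes (grey) and for members coloured by complex, with the median of all genes in steps of brightness as a line. The coloured points crowd at the bright end between 10 and 13.5, where the median of all genes runs from -0.21 to -0.14 and most members lie below it.

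The stretch upstream of a gene's start is where shared regulation of these genes has been looked for, since the factors NRF1, GABP (of the ETS family) and YY1 are known regulators of nuclear respiratory genes. For 74 of the 90 members, RefSeq (GRCm38.p6) gave 79 windows of 250 bases before a start site, and these were searched on both strands for CGCATGCG (the palindromic core of the NRF1 site), CCGGAAG (ETS), AAGATGGCG (YY1) and GGGCGG (SP1), which do not contain one another. CGCATGCG was found in 8.86% of the members' windows and in 1.55% of all 32851 windows. CCGGAAG was found in 17.7% and 6.91%, AAGATGGCG in 1.27% and 0.606%, and GGGCGG in 39.2% and 32.7%. By call, CGCATGCG stood in 5 of 58 windows of members that fell and in 2 of 20 windows of members not called, and CCGGAAG in 12 of 58 and 2 of 20. A match is a description of the letters, not a site in use. The 4 windows below are shown because 1 of 2 Atp5j windows held all of the first 3 motifs, Cox6a1 held NRF1 and ETS letters in a gene that fell, Ndufs7 fell the most, and Ndufb1 was the only complex I gene that rose. The window of Atp5l, which also fell, held NRF1 and ETS letters as well and is not printed. Capitals mark CGCATGCG, CCGGAAG (or CTTCCGG, its other strand) and AAGATGGCG, and the sequences run 5′ to 3′ on the gene's strand up to the start site.
Atp5j promoter, chr16:84834977-84835226, - strand: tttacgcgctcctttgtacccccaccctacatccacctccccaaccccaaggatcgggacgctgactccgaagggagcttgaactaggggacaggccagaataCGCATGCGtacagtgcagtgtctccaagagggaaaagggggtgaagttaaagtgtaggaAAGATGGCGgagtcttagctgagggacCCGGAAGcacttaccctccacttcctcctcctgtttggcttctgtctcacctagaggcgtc
Cox6a1 promoter, chr5:115348959-115349208, - strand: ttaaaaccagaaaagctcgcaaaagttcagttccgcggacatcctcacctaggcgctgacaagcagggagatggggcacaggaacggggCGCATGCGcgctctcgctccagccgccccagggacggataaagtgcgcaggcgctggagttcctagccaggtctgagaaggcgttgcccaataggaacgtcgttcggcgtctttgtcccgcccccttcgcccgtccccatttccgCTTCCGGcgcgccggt
Ndufs7 promoter, chr10:80249199-80249448, + strand: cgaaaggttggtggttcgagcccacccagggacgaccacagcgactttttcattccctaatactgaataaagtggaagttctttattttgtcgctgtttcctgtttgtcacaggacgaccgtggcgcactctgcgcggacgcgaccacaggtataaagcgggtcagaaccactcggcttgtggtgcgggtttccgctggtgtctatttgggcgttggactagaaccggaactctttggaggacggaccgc
Ndufb1 promoter, chr12:101975739-101975988, - strand: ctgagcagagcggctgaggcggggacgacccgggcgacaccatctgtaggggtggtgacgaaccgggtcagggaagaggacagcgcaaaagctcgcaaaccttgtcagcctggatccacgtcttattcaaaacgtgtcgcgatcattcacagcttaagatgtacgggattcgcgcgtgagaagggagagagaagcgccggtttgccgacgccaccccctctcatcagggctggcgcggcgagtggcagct
In the Atp5j window printed here the NRF1 letters began at -147, the YY1 letters at -88 and the ETS letters at -61, counted from the start site. In the Cox6a1 window they began at -161 for NRF1 and at -16 for ETS. The windows of Ndufs7 and Ndufb1 held none of the capitalised motifs, nor did a second Atp5j window, at chr16:84835626-84835875.

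In complex I, 31 of 44 genes fell and 1 rose, with a median of -0.36. Without the 8 assembly factors and the pair Ndufa4 and Ndufa4l2, 26 of 34 subunits fell and the median was -0.42. In the matrix arm, which takes electrons from NADH and passes them along iron-sulfur clusters, 9 of 14 fell. In the membrane arm, which pumps protons, 16 of 19 fell and 1 rose.

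Ndufs7, the matrix arm subunit that carries the last iron-sulfur cluster before ubiquinone, had the largest difference of all members. It read 10.25 and 10.23 in IL-10+ samples against 11.23 and 11.25 in IL-10- samples. Its level in IL-10+ cells was 50.0% of that in IL-10- cells (difference -1.00 ± 0.06 SE, adjusted p = 3.98e-05), and read as natural logarithms the fold would be 2.72. A second, dimmer probe set fell as well, by 0.77 (adjusted p = 0.000182). The spread within each group was 0.02 on this scale, far less than the distance between the groups.

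Ndufa5, an accessory subunit of the matrix arm, read 9.86 and 9.90 against 10.61 and 10.74 (-0.79 ± 0.07 SE, adjusted p = 0.000175). Ndufa6, another accessory subunit of that arm, to which the acyl carrier protein docks, read 9.85 and 9.98 against 10.52 and 10.66 (-0.68, adjusted p = 0.000559). Ndufa7 read 11.32 and 11.33 against 11.84 and 12.10 (-0.64, adjusted p = 0.00158). In all of these genes both IL-10+ arrays lay below both IL-10- arrays, and all 5 probe sets of Ndufa7 and both of Ndufa5 fell. Ndufab1, the mitochondrial acyl carrier protein itself, fell by 0.61 in its brightest probe set (adjusted p = 0.000418), while its 4 dim ones ranged from -0.03 to 0.12 and were not called. Its call was lost with the mean over its probe sets and, at 0.12, when probe sets with suffix x or s were dropped.

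Among the subunits that carry the redox centres, calls were mixed by probe set. Ndufv1, which binds NADH and the flavin, read 10.46 and 10.47 against 10.89 and 10.98 (-0.47, adjusted p = 0.00137), and all 3 of its probe sets fell. Ndufs1, the largest subunit and a carrier of iron-sulfur clusters, read 9.48 and 9.48 against 9.44 and 9.47 (0.02, adjusted p = 0.849), with a 95% interval from -0.12 to 0.17. Ndufs8, which also carries iron-sulfur clusters, read 11.69 and 11.71 against 11.91 and 11.83 (-0.17, adjusted p = 0.0989). The brightest probe set of Ndufs8 was therefore not called, yet 3 of its 5 others fell, among them probe sets at -0.51 and -0.47 with means as high as 11.69. Ndufv2, an iron-sulfur subunit beside Ndufv1, showed the same split, with -0.14 in the brightest probe set (adjusted p = 0.192) and -0.55 and -0.45 in the other two. After cyclic loess Ndufs1 was called higher, and in no other setting was it called.

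The 16 membrane arm genes that fell did so by 0.27 to 0.62. Ndufc1 (-0.62), Ndufb10 (-0.56), Ndufb2 (-0.53), Ndufb11 (-0.51), Ndufs5 (-0.44), Ndufa3 (-0.43) and Ndufb9 (-0.43), all accessory subunits, were called lower under every alternative scaling, prior, probe set choice and left-out array in which they had a value. Ndufb1, a small accessory subunit of the same arm, read 9.61 and 9.66 in IL-10+ samples against 9.03 and 9.12 in IL-10- samples (0.57 ± 0.07 SE, adjusted p = 0.000612). It is read by 1 probe set, so no second reading bears on its direction, and its difference ranged from 0.49 to 0.75 over the alternatives. It was the only complex I gene that rose at the reported setting. Ndufb4 had a dim probe set of its own at 5.8 or below (0.03, adjusted p = 0.759), whereas both probe sets shared by Ndufb4 and its near-identical copies Ndufb4b and Ndufb4c read about 10 and fell, by 0.62 and 0.47. Probe sets that cannot tell Ndufa11 or Ndufs6 from a second gene fell by 0.52 and 0.59 in the same way, while a second, dim probe set shared by Ndufa11 and its copy differed by 0.06 (adjusted p = 0.658), and these genes were not counted.

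Ndufa12, an accessory subunit of the matrix arm, was the only member with probe sets called in both directions. Its 3 bright probe sets fell, by 0.47, 0.51 and 0.54, and the brightest read 11.39 and 11.37 against 11.87 and 11.83 (adjusted p = 0.00112). Its dim probe set, with a mean of 6.32, read 6.56 and 6.47 against 6.13 and 6.11 (0.39, adjusted p = 0.00335). All 3 bright ones carry the suffix x or s, which marks probes that can also match other transcripts, and without such probe sets the gene's difference is the 0.39 of the dim one.

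Of the assembly factors of complex I, which help build the enzyme and are not part of it, 5 of 8 fell. Ndufaf8 (-0.54), Ndufaf4 (-0.47), Ndufaf5 (-0.42) and Ndufaf6 (-0.35) were called lower under every alternative scaling, prior, probe set choice and left-out array, and Ndufaf2 (-0.20) fell at an adjusted p of 0.0493, near the threshold. Ndufaf1 (-0.18), Ndufaf3 (-0.06) and Ndufaf7 (0.00) were not called. Ndufa4, named for complex I although its protein is found with complex IV, read 10.20 and 10.37 against 10.06 and 10.43 (0.04, adjusted p = 0.841), so its groups overlapped. Its paralogue Ndufa4l2, known as a hypoxia-induced gene, was dim at 6.66 and 6.50 against 6.43 and 6.40 (0.17, adjusted p = 0.141).

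In complex II, 0 of 4 genes fell and 1 rose, and the median of -0.12 turned to 0.07 after cyclic loess. Sdha, the flavin subunit that oxidises succinate, read 10.60 and 10.62 against 10.73 and 10.71 (-0.11, adjusted p = 0.222). Sdhb, the iron-sulfur subunit, read 11.72 and 11.78 against 11.84 and 12.01 (-0.18, adjusted p = 0.137). Sdhd, a membrane anchor, read 10.48 and 10.52 against 10.56 and 10.71 (-0.13, adjusted p = 0.241). In all of these both IL-10+ arrays were the lowest, but none was called, and how often such an order holds over all genes was not counted. Sdhc, the other membrane anchor, read 10.05 ± 0.08 (SD, n = 2) in IL-10+ samples against 9.80 ± 0.06 in IL-10- samples (0.25 ± 0.07 SE, limma's adjusted p = 0.0321), and the groups did not overlap. Its call was lost after median centring and without IL-10+ replicate 1, IL-10+ replicate 2 or IL-10- replicate 3, with differences that stayed above zero, from 0.17 to 0.45. A second probe set of Sdhc rose by 0.50 (adjusted p = 0.000799). In the dimmer probe sets, by contrast, Sdha fell by 0.59 (adjusted p = 0.0013) and Sdhd by 0.34 (adjusted p = 0.0158), so the dimmer probe sets of this complex were called in both directions. Whether complex II differs from the other complexes was not tested.

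**Figure D3:**
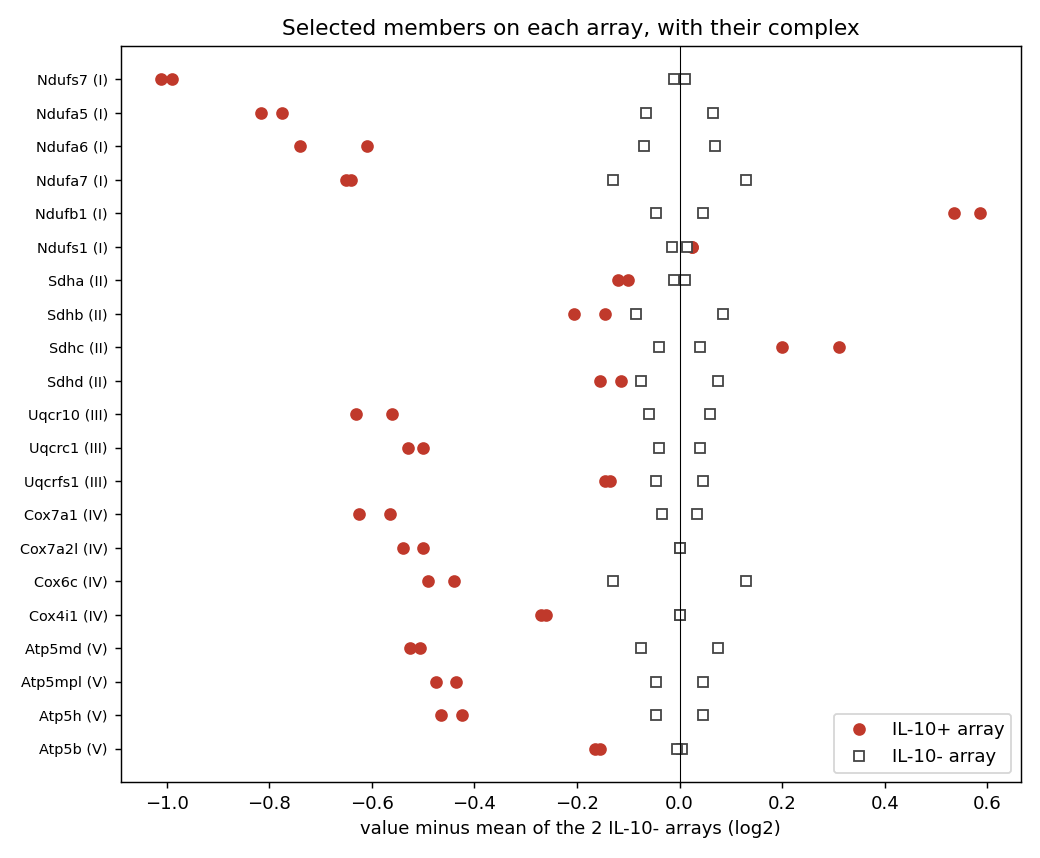
Values of 21 genes on each array, each less the IL-10- mean of its gene (log2, horizontal axis), with the complex in brackets; filled red circles are IL-10+ arrays and open squares IL-10- arrays. The red circles of Ndufs7 lie near -1.00, those of Ndufb1 and Sdhc lie to the right of all squares, and those of Sdha, Sdhb, Sdhd, Uqcrfs1 and Atp5b lie close to the squares.

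In complex III, 6 of 8 genes fell, and the median was -0.33. The 5 small subunits all fell, and 1 of the 3 core and catalytic subunits did. Uqcr10, a small subunit, read 10.91 and 10.84 against 11.41 and 11.53 (-0.59 ± 0.07 SE, adjusted p = 0.000676), and all 3 of its probe sets fell. Uqcrc1, a core protein, read 10.73 and 10.76 against 11.22 and 11.30 (-0.51, adjusted p = 0.000894). Uqcr11 read 10.33 and 10.41 against 10.77 and 10.77 (-0.40, adjusted p = 0.00272), a call that was lost after cyclic loess. In these genes the 2 arrays of a group differed by less than the groups did. Uqcrh, the hinge protein that binds cytochrome c1, read 12.35 and 12.42 against 12.62 and 12.91 (-0.38, adjusted p = 0.0217), with a wider spread in the IL-10- group, and its call was lost after quantile normalization and cyclic loess, without IL-10+ replicate 1 and when probe sets with suffix x or s were dropped. Uqcrc2, the other core protein, read 11.05 and 11.11 against 11.25 and 11.23 (-0.17, adjusted p = 0.0955). Uqcrfs1, the Rieske iron-sulfur protein, read 11.16 and 11.17 against 11.26 and 11.35 (-0.14, adjusted p = 0.157). Neither of the latter genes was called. Their groups did not overlap, but how often this holds over all genes was not counted. The number that fell was 3 without IL-10+ replicate 1 and 2 after cyclic loess.

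In complex IV, 11 of 17 genes fell and 0 rose, with a median of -0.28. Of the 9 nuclear subunits found in most tissues 8 fell, with a median of -0.36, and of the 7 isoforms known from muscle, lung, testis or other tissues 2 fell. The number that fell was 7 without IL-10+ replicate 2 and 7 after cyclic loess.

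Cox6a1, a broadly expressed subunit whose upstream window is printed above, read 13.26 and 13.22 against 13.49 and 13.69 (-0.35, adjusted p = 0.013), and its call was lost after quantile normalization and cyclic loess and without IL-10+ replicate 2. Its muscle counterpart Cox6a2 was dim, at 7.21 and 7.26 against 7.26 and 7.23 (-0.01, adjusted p = 0.927). Cox6b1, a subunit on the outer face, read 12.80 and 12.78 against 13.14 and 13.27 (-0.42, adjusted p = 0.00342). Its testis counterpart Cox6b2 read 6.31 and 6.44 against 6.63 and 6.58 (-0.23, adjusted p = 0.048), a call that was lost without IL-10+ replicate 1, IL-10+ replicate 2 or IL-10- replicate 3. Cox8a read 11.12 and 11.14 against 11.49 and 11.62 (-0.43, adjusted p = 0.00282). Its isoforms Cox8b and Cox8c lay between 6.43 and 7.48 on all arrays and were not called. In each of these groups the broadly expressed form fell, and of the tissue forms Cox6b2 did.

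Cox4i1, a large subunit that regulates the enzyme, read 12.65 and 12.64 against 12.91 and 12.91 (-0.26, adjusted p = 0.0146). Its call was lost after quantile normalization and cyclic loess and without either IL-10+ replicate. Cox4i2, the isoform known from lung, read 6.33 and 6.34 against 6.20 and 6.32 (0.08, adjusted p = 0.461). Cox5a, in contact with Cox4i1 on the matrix side, read 12.69 and 12.72 against 12.96 and 13.02 (-0.28, adjusted p = 0.012), and was lost after cyclic loess and without either IL-10+ replicate. Cox5b, a zinc-binding subunit, read 12.87 and 12.83 against 13.20 and 13.29 (-0.39, adjusted p = 0.00328), and Cox6c, a small membrane subunit, read 12.20 and 12.25 against 12.56 and 12.82 (-0.47, adjusted p = 0.00647). Both kept their call under every alternative scaling, prior, probe set choice and left-out array.

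Among the Cox7a genes the muscle form fell as well as the broadly expressed one. Cox7a1, the form known from heart and skeletal muscle, was dim yet had the largest difference of the complex, at 7.33 and 7.39 against 7.92 and 7.99 (-0.59 ± 0.07 SE, adjusted p = 0.000458). Cox7a2, the broadly expressed form, read 12.93 and 12.91 against 13.23 and 13.34 (-0.36, adjusted p = 0.00512), a call lost after cyclic loess. Cox7a2l, a related protein studied for a part in supercomplexes of complexes III and IV, read 10.91 and 10.95 against 11.45 and 11.45 (-0.52, adjusted p = 0.000687). All 3 of its probe sets fell, and supercomplexes were not measured here. Cox7c, a subunit found in most tissues, was represented by a dim probe set, at 7.13 and 7.22 against 7.11 and 7.42 (-0.09, adjusted p = 0.608) and its other probe set was dimmer still. Cox7b2, the testis form, lay between 5.25 and 5.34 on all arrays.

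In complex V, 13 of 17 genes fell and 0 rose, with a median of -0.29. The number that fell was 5 without IL-10+ replicate 1, 7 without IL-10+ replicate 2 and 4 after cyclic loess. All 5 small subunits of the membrane part and all 4 of the peripheral stalk fell. In the catalytic F1 part 3 of 5 fell, and among the 3 genes of the c-ring, the rotor in the membrane, 1 did.

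Atp5md, a small subunit that helps ATP synthase form dimers, read 11.16 and 11.14 against 11.59 and 11.74 (-0.52 ± 0.07 SE, adjusted p = 0.00147). Atp5mpl, a small proteolipid bound to the enzyme, read 11.93 and 11.89 against 12.32 and 12.41 (-0.45, adjusted p = 0.00168). Atp5h, subunit d of the peripheral stalk, read 12.28 and 12.32 against 12.70 and 12.79 (-0.45, adjusted p = 0.00182). Atp5j2, subunit f, completed the group of 4 genes in this complex that kept their call under every alternative scaling, prior, probe set choice and left-out array, at 12.32 and 12.29 against 12.66 and 12.73 (-0.39, adjusted p = 0.00294). Atp5j, the stalk subunit for which 1 of 2 upstream windows held the NRF1, YY1 and ETS letters, fell by 0.29 (adjusted p = 0.0254). Atp5o, which links the stalk to the catalytic head, read 11.63 and 11.66 against 12.00 and 11.87 (-0.29, adjusted p = 0.0157), and the calls of Atp5j and Atp5o were lost after quantile normalization, after cyclic loess and without either IL-10+ replicate, that of Atp5j also without IL-10- replicate 4.

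The catalytic alpha and beta subunits were not called in their brightest probe sets. Atp5b, the beta subunit that makes ATP, read 12.54 and 12.55 against 12.71 and 12.70 (-0.16, adjusted p = 0.0986), with a 95% interval from -0.30 to -0.01. Atp5a1, the alpha subunit, read 12.14 and 12.16 against 12.26 and 12.36 (-0.16, adjusted p = 0.114), and a second, nearly as bright probe set fell by 0.43 (adjusted p = 0.00163). Atp5c1, the gamma subunit of the central shaft, read 12.21 and 12.20 against 12.36 and 12.50 (-0.23, adjusted p = 0.045), and its call was lost under 7 alternatives, each of the IL-10+ arrays left out among them. Arrays of the 2 groups did not overlap for any of these genes, which with 2 arrays a group says little where a gene was not called. The c-ring genes Atp5g1, Atp5g2 and Atp5g3 encode the same mature protein. Atp5g1 read 10.73 and 10.75 against 11.02 and 11.12 (-0.34, adjusted p = 0.00704), and its call was lost after cyclic loess, without IL-10+ replicate 1 and with the mean over its probe sets. Atp5g2 read 11.48 and 11.52 against 11.77 and 11.49 (-0.13, adjusted p = 0.377), and Atp5g3 read 12.82 and 12.78 against 12.81 and 12.96 (-0.08, adjusted p = 0.46). The groups of both genes overlapped.

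Probe sets of a gene did not always give the same call, and the counts were therefore repeated over all of them. Of the members' 179 probe sets 113 fell (63.1%), 4 rose and 62 were not called, against 16.2% lower and 13.6% higher over all 45037 probe sets. That comparison is not matched for brightness, since 116 of the 179 had a mean of 10 or more, and 95 of those fell. Of the 89 probe sets that were not the brightest of their gene, 52 fell (58.4%) and 2 rose. Shares over all probe sets of like brightness, or over all those not the brightest of their gene, were not computed. In 7 genes the brightest probe set was not called while a dimmer one fell: Ndufs4, Ndufs8, Ndufv2, Sdha, Sdhd, Atp5a1 and Atp5g2. In 0 genes was it the other way round, with a dimmer one higher. No probe set was called for 20 members, among them Ndufs1, Sdhb, Uqcrc2, Uqcrfs1 and Atp5b.

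**Figure D4:**
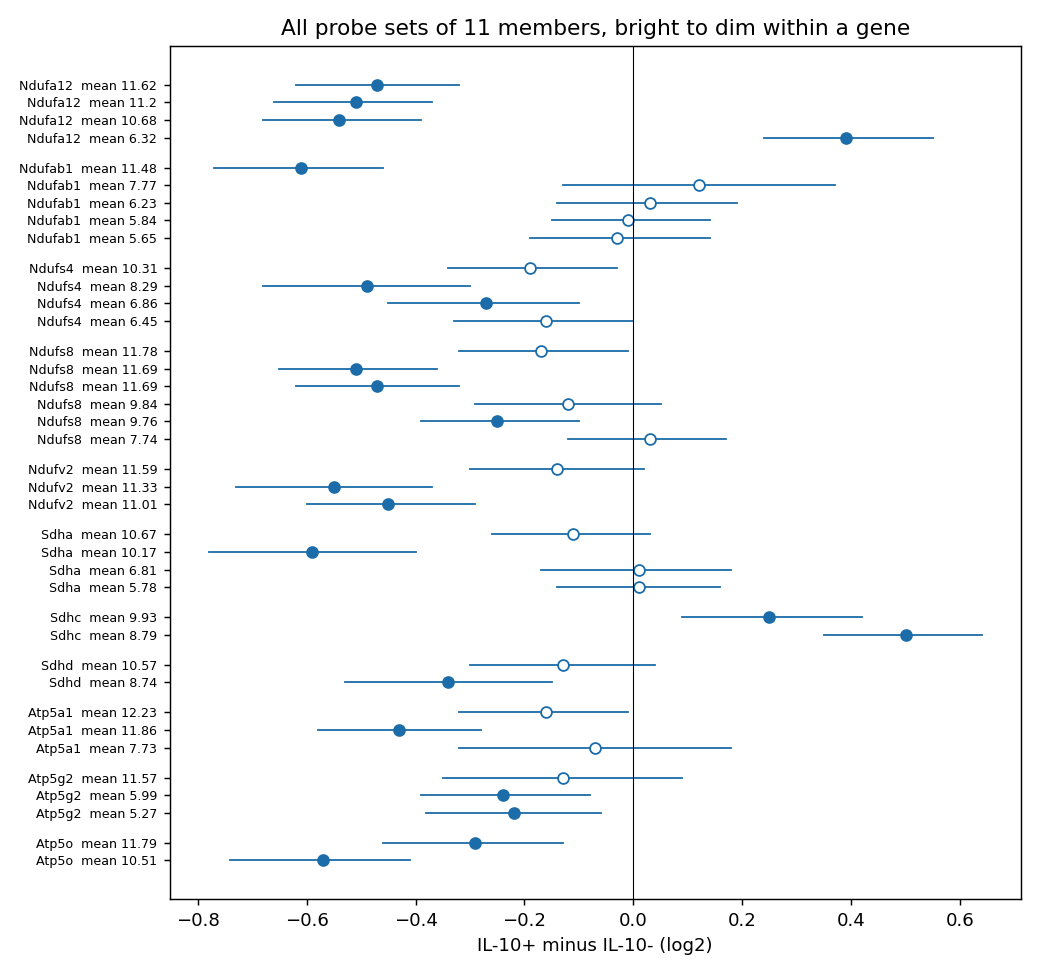
Difference between groups (IL-10+ minus IL-10-, log2, horizontal axis) of every probe set of 11 genes, each labelled with its mean over the 4 arrays and ordered from bright to dim within a gene. Points are differences of 2 against 2 arrays, lines are 95% intervals and filled points are called; in Ndufs8, Ndufv2, Sdha and Atp5a1 the brightest probe set is open and another is filled on the left, and in Ndufa12 the dim probe set is filled on the right.

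Other genes of oxidative metabolism, from lists of genes that the name rule does not take, moved to different extents. Over all genes 22.9% fell, and between 36.3% and 47.4% did in each step of brightness from 7 upward. Of 17 measured genes of the citrate cycle and pyruvate oxidation, which feed the chain with NADH and succinate, 12 fell (70.6%). The 1 that rose was Idh3a (0.33), a subunit of isocitrate dehydrogenase. The largest falls were in Suclg2 (-0.84), a subunit of succinyl-CoA ligase, Ogdh (-0.73), of the oxoglutarate dehydrogenase complex, and Fh1 (-0.57), the fumarase. After cyclic loess 6 fell and 3 rose. Of 36 assembly factors outside the name rule 14 fell (38.9%) and 2 rose. They were led by Cox20 (-0.64), a chaperone of complex IV assembly, Cox10 (-0.62), which makes heme for complex IV, and Sco1 (-0.62), a copper carrier for it, and the risers were Tmem126b (0.39), for complex I, and Sdhaf2 (0.30), which helps attach flavin to Sdha. After cyclic loess 8 of the 36 were lower and 4 higher, and their median moved from -0.14 to -0.01.

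Of 18 electron carriers and enzymes of coenzyme Q synthesis, 8 fell (44.4%) and 3 rose. Coq2 (-0.77), Coq9 (-0.61) and Pdss2 (-0.58), all needed to make coenzyme Q, fell. After cyclic loess 6 of the 18 were lower and 4 higher. The genes that rose were Etfa (0.42), of the electron transfer flavoprotein, Hccs (0.38), which attaches heme to cytochrome c, and Gpd2 (0.37), the mitochondrial glycerol-3-phosphate dehydrogenase. Of 17 genes of mitochondrial biogenesis, 5 fell (29.4%) and 1 rose. That is above the 22.9% of all genes but below the 36.3% to 47.4% in the steps of brightness from 7 upward, where most of these genes read. Polg (-0.74), the polymerase of mitochondrial DNA, Pprc1 (-0.54), a coactivator, and Nrf1 (-0.42), the factor whose motif core was searched above, were lower. Mterf1a (0.30), a termination factor, was higher. The call of Mterf1a was lost after quantile normalization (0.28) and median centring (0.23). After cyclic loess 5 of these 17 genes were lower and 3 higher, with a median of -0.01. Of 11 carriers and pores, 5 fell (45.5%), among them Vdac1 (-0.39), Vdac2 (-0.35) and Slc25a4 (-0.30), an ADP/ATP carrier. The 1 that rose was Slc25a13 (0.33), an aspartate-glutamate carrier. That share, the 44.4% of electron carriers and the 38.9% of assembly factors lay within the range of all genes by brightness given above. After cyclic loess 0 of these 11 fell and 3 rose, and their median moved from -0.14 to 0.05.

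Subunits and regulators whose symbols fall outside the name rule gave both directions. Atpif1, the inhibitor protein of ATP synthase, fell by 0.60 (adjusted p = 0.000672), and Cyc1, the cytochrome c1 subunit of complex III, fell by 0.25 (adjusted p = 0.0175), a call that was lost after quantile normalization and cyclic loess. Dmac2l, a coupling factor of ATP synthase, differed by 0.03 (adjusted p = 0.823). ND5, a complex I subunit encoded in the mitochondrial genome, was the only mitochondrially encoded gene named by a probe set here, and it read 12.79 and 12.77 in IL-10+ samples against 12.12 and 11.98 in IL-10- samples (0.73, adjusted p = 0.000269). It thus rose where 26 of the 34 nuclear subunits of complex I counted here fell and 1 rose. The difference of ND5 was 0.83 after quantile normalization, 0.65 after median centring and 0.92 after cyclic loess.

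**Figure D5:**
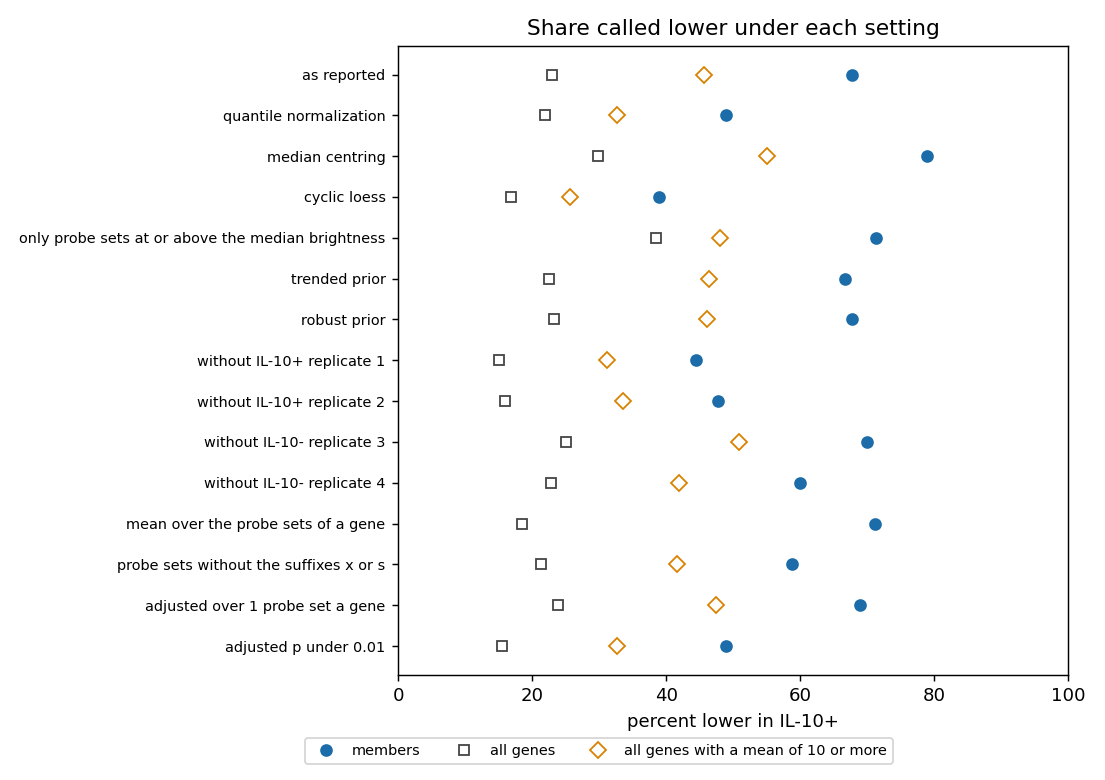
Percentage of genes called lower in IL-10+ samples (horizontal axis) under the reported setting and each alternative except the 2-fold threshold. Filled circles are the members, open squares all genes, and open diamonds all genes with a mean of 10 or more. The diamonds were not computed with the mean over probe sets. Among the settings drawn, the members' share ran from 38.9% after cyclic loess to 78.9% after median centring. In every row with both symbols it lay to the right of the diamonds. At 2-fold with an adjusted p under 0.001, not drawn, 1.11% of the members were lower. The shares there were 0.792% of all genes and 1.04% of genes with a mean of 10 or more.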

How the data were processed

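Total RNA of the sorted cells (100 ng, per the labels) was labelled and hybridised to Affymetrix mouse genome arrays. The methods of the paper give a larger starting amount, and which amount was used is not known here. The authors normalized signal intensities by variance stabilization and deposited a single value for each probe set on each array, taken here to be log2. How probes were summarised into probe sets is not given in the sources used here. Variance stabilization compresses the differences of dim probe sets. Array medians lay between 6.313 and 6.407.

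After 64 control probe sets were set aside, 45037 probe sets were compared in limma 3.58.1 under R 4.3.3 (lmFit, eBayes, a two-sided moderated test, Benjamini-Hochberg adjustment, 2 residual and 5.44 prior degrees of freedom), a step tested on simulated data. Gene symbols are those of the platform annotation and may be outdated. It gives 1 gene for 34945 probe sets, several for 932, which were not used, and none for 9160. Some subunits are not reported here. Plots were made in matplotlib 3.10.9 (Python 3.11.15).

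The members and gene lists were chosen with earlier results of these data known. Values on each array were given for up to 4 called members of largest difference in each direction and complex, for core subunits, for isoform groups and for members with probe sets called in opposite directions (47 members), and up to 3 called genes of each other list were named in each direction. Alternatives were quantile normalization, median centring, cyclic loess, leaving out dim probe sets, a trended or robust prior, leaving out each array, the mean over a gene's probe sets, dropping probe sets with suffix x or s, adjustment over 1 probe set a gene, and stricter thresholds. Arrays have no sequencing depth, and the 4 arrays limit the precision.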

Additional observations from a re-analysis of the deposited data

How the results depend on the processing

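The number of members lower in IL-10+ samples was 61 and stayed between 44 and 71 under the other alternatives, apart from 35 after cyclic loess, 40 to 63 when 1 array was left out, and 1 at 2-fold with an adjusted p under 0.001. The members' median difference of -0.32 became -0.12 after cyclic loess, -0.19 after quantile normalization, -0.26 with the mean over a gene's probe sets and -0.39 after median centring, and ranged from -0.38 to -0.28 with 1 array left out. The number higher was 2, and became 3 after cyclic loess, 3 without probe sets with suffix x or s, 1 at an adjusted p under 0.01, 1 after median centring, 0 at 2-fold, and 1 to 2 with 1 array left out. At 2-fold, 1 gene of complex I and 0 of complexes III, IV and V were lower. At an adjusted p under 0.01 the numbers lower were 3, 7 and 7 in complexes III, IV and V. After cyclic loess they were 2, 7 and 4, and after quantile normalization 3 in complex III and 7 in complex V. In complex II, 0 became 2 with the mean over probe sets and 1 after median centring. With 1 array left out the numbers ranged from 24 to 32, 0 to 1, 3 to 5, 7 to 11 and 5 to 14 in complexes I to V. When probe sets with suffix x or s were dropped, Ndufa12 reversed to 0.39 and Ndufab1 was not called at 0.12. The complex II median turned from -0.12 to 0.07 after cyclic loess. The causes of these changes were not tested. Leaving out an array leaves 1 in its group, which is then assumed to vary like the other group. No paired analysis was made, because the labels do not say whether any IL-10+ and IL-10- arrays came from the same sort.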
